A study of Drosophila melanogaster with 31 samples.

Results

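The proteasome subunit genes were taken as every gene of the count table whose symbol starts with Prosalpha, Prosbeta, Rpn or Rpt followed by a digit, which gave 47 of 17373 genes. Of these, 32 encode canonical subunits and 15 are paralogs whose symbols end in T or R with or without a number. Another subunit gene, Sem1, is named differently, so it is not among them and was listed with genes for assembly and regulation. RNA was sequenced from wing imaginal discs, the larval epithelia that form the adult wing and notum, of Drosophila melanogaster larvae of the third instar. The study had 6 RNA groups of 3 libraries each, and the title of the series asks how Hippo signalling alters the response to Ras. The 13 ChIP-nexus samples of the series were not analysed here.

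The groups were cic wts discs at day 9, wts discs at day 9, cic wts discs at day 5, wts discs at day 5, cic discs at day 5 and control discs at day 5. All 6 carried y w ubxflp, a recombinase driven in the disc, with a FRT82B M(3) ubiGFP chromosome over a second FRT82B chromosome. That second chromosome bore cicQ474X with wts149 in the cic wts groups, wts149 alone in the wts groups, cicQ474X alone in the cic group and no further mutation in the controls. Capicua (cic) is a repressor of genes that Ras signalling turns on, and Warts (wts), a kinase of the Hippo pathway, holds back the growth co-activator Yorkie. The discs were therefore mosaics of homozygous clones and of cells carrying the Minute mutation M(3), which slows growth, and a library holds RNA of both kinds of cell. In such bulk RNA, fewer cells that express a gene and less RNA per cell cannot be told apart. Each library pooled discs of 12 to 35 larvae, and since the labels do not say that pools came from separate cultures, the spread behind each p-value is that of these libraries and may be technical. No day 9 control or cic group was analysed here.

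The proteasome degrades proteins tagged with ubiquitin. Its barrel-shaped core is built of outer rings of alpha subunits and inner rings of beta subunits, of which Prosbeta1, Prosbeta2 and Prosbeta5 carry the catalytic sites. A regulatory particle caps the core, and a ring of Rpt ATPases in it unfolds the substrate. The Rpn subunits of the base (Rpn1, Rpn2, Rpn10 and Rpn13) include the scaffold of the particle and subunits that bind ubiquitin. The Rpn subunits of the lid, which include the deubiquitinase Rpn11, remove the ubiquitin of the substrate. In flies and mammals the subunit genes can be raised together when proteasome activity drops, through the cap'n'collar factor CncC (gene cnc) and its mammalian relatives. In Drosophila several of the paralogs are known from the male germ line.

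Libraries held 14201662 to 26217144 counts, and 9004 genes had enough counts to be tested. Levels are given as CPM, a gene's counts relative to the size of its library after scaling by the TMM method, and a gene is called changed where its Benjamini-Hochberg adjusted p over all 9004 genes, from edgeR's quasi-likelihood test, is under 0.05. The wts transcript was at 224, 224 and 227 CPM in cic wts day 9, at 273, 258 and 278 in wts day 9, at 162, 174 and 207 in cic wts day 5, and at 214, 210.2 and 185 in wts day 5 discs, against 109, 99.0 and 109.9 in cic and 99.3, 106 and 94.96 in control discs. The cic transcript was at 449.9 to 516 CPM in the 6 cic wts libraries, 609 to 748 in the 6 wts libraries, 396 to 578 in the cic and 533 to 658 in the control libraries. Neither transcript was lost in its mutant, so RNA levels did not check the genotype labels for loss of these genes. The 9 wing disc markers examined were all expressed, with summed levels of 2187 to 2931 CPM per library.

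Of the 47 members, 32 reached a mean of 1 CPM in at least 1 group and 31 reached 5 CPM. The same 32 passed the filter on low counts: 31 of 32 canonical genes and 1 of 15 paralogs, Rpt3R. All 7 canonical beta genes, 6 of 7 alpha genes, all 4 Rpn base genes, all 8 Rpn lid genes and all 6 Rpt genes were measured. Their levels spanned 79.7 CPM, for Rpn12 in 1 wts day 9 library, to 481 CPM, for Rpn2 in 1 cic library. These levels are not scaled by transcript length, so they compare libraries and not genes.

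The canonical gene without a usable level was Prosalpha1, at 2R:7827303-7828678 in release 6 of the genome, which had 8 counts over all 18 libraries. A duplicate of it, listed as CG30382 and now named Prosalpha1R, starts 1735 bases past its end at 2R:7830413-7831771 and had 0 counts. Reads that fit both copies equally can go uncounted in gene counting, and their part in these values was not tested, so Prosalpha1 is given neither as expressed nor as silent. Of the 14 paralogs that failed the filter, 7 had 0 counts in every library, among them Prosalpha3T, Prosalpha4T1 and Rpt4R. A count of 0 allows up to 3 counts, which is 0.118 to 0.213 CPM per library, for counting error only. The other 7 were detected in few reads, with 64 counts in all for Rpt6R and 37 for Prosbeta2R2 as the highest totals, and none exceeded 0.794 CPM in any library.

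**Figure D1:**
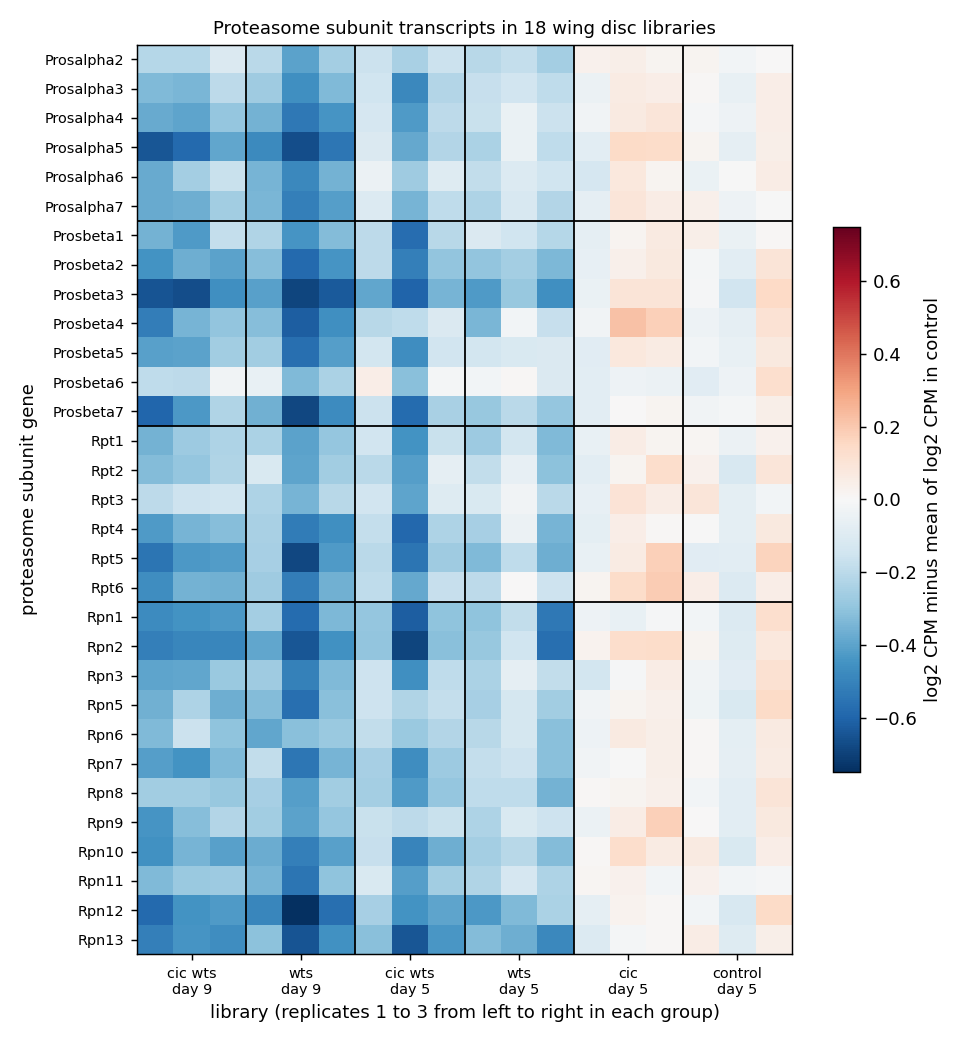
Each row is 1 of the 31 measured canonical subunit genes and each column 1 of the 18 libraries, with colour giving log2 CPM minus the mean of log2 CPM in the controls. The 12 libraries with wts mutant clones are mostly blue, with library medians between -0.52 and -0.13, while those of the 3 cic libraries lie between -0.06 and 0.06.

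The summed level of the 31 canonical genes was lower in every library with wts mutant clones than in any cic or control library. It was 4673, 4859 and 5032 CPM in cic wts day 9, 5064, 4328 and 4810 in wts day 9, 5469, 4584 and 5332 in cic wts day 5, 5276, 5647 and 5077 in wts day 5, and 6020.2, 6446 and 6495 in cic discs, against 6209.6, 5900.0 and 6533 in control discs. The highest of the 12 libraries with wts clones, wts day 5 replicate 2, lay below the lowest control library, and the cic and control libraries overlapped.

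The mean was 4855 ± 179 CPM in cic wts day 9 (SD, n = 3 here and in each group), 4734 ± 374 in wts day 9, 5128 ± 477 in cic wts day 5, 5333 ± 289 in wts day 5 and 6320.5 ± 261 in cic discs, against 6214 ± 317 in control discs. In percent of the control mean these were 78.1, 76.2, 82.5, 85.8 and 101.7 in the same order. The 31 genes made up 0.428% to 0.561% of all deposited counts in the libraries with wts clones, and 0.597% to 0.683% in cic and control libraries, which is the same sum relative to total counts instead of TMM-scaled library sizes. The members share this pattern through common libraries and are not independent replicates of it, and no p is given for the sum.

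**Figure D2:**
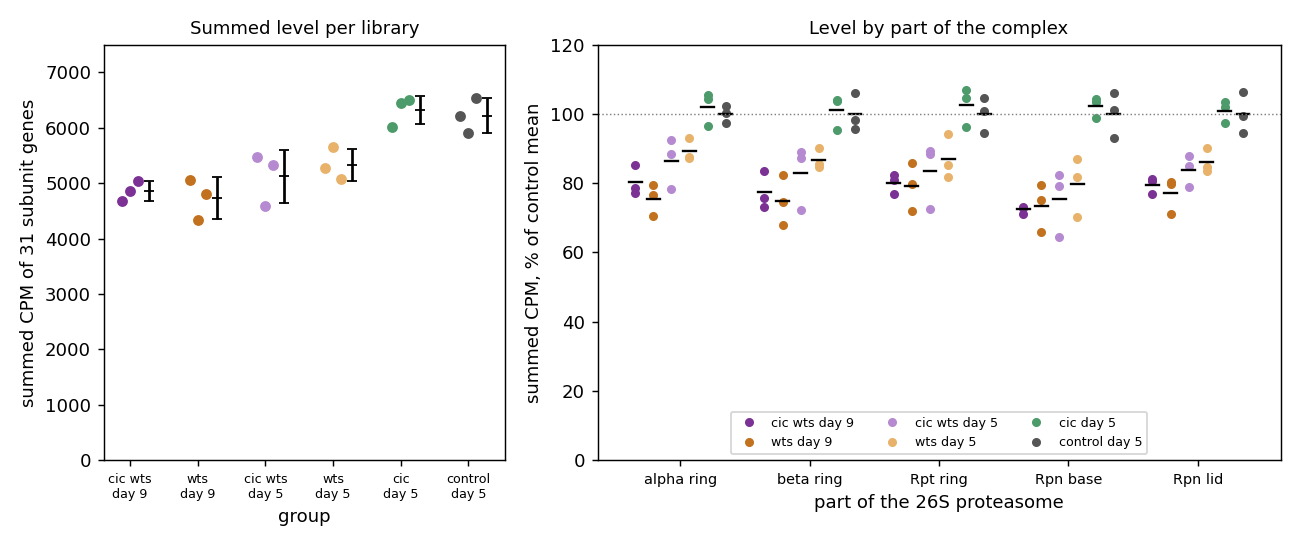
Left, summed CPM of the 31 canonical subunit genes in each library (points) with the mean and SD of each group (bars), on an axis from 0; right, the sum for each part of the complex in percent of its control mean, with bars at group means. All 12 libraries with wts clones lie below the control libraries on the left, and on the right the Rpn base has the lowest wts values, with group means of 72.4% to 79.7%.

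Set against control discs at day 5, cic wts discs had 22 of the 32 tested members called lower and 0 called higher, where 11.2% of all tested genes were called lower and 11.3% higher. In wts discs 10 members were called lower and 0 higher, where 8.16% of all genes were called lower and 10% higher. Over all genes these were 1014 higher and 1008 lower in cic wts and 900 and 735 in wts discs, against 749 and 1293, and 635 and 1081, when libraries were scaled by their total counts. The median log2 fold change of the 31 canonical members was -0.26 in cic wts and -0.21 in wts discs, where the median over all tested genes was 0.01 and 0.00. All 31 canonical members had negative values in both comparisons. The 3 mutant libraries lay below all 3 control libraries for 28 of the 31 genes in cic wts and 23 of 31 in wts discs, against 17.3% and 17% of all tested genes. All 10 genes called in wts discs were among the 22 called in cic wts discs, that is 100% of the one list and 45.5% of the other. Both comparisons use the same 3 control libraries, so they are not independent.

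The changes were small. Of the called members, Prosalpha2 fell by 12.3% and Rpn13 fell by 27.4% in cic wts discs, the smallest and the largest fall there. In wts discs Prosalpha2 fell by 13.8% and Rpn13 fell by 23.8%, again the smallest and the largest. The number of calls depended on the model: with the compared libraries alone in the fit, 4 members were called lower in cic wts discs, with 518 genes lower in all, and DESeq2 called 27 members among 1209 lower genes in cic wts and 17 among 991 in wts discs. Leaving out 1 library moved it too: in cic wts it was 6 (of 672 lower genes) without cic wts day 5 replicate 2, and 9 without control replicate 1 (of 720) or without control replicate 3 (of 773). In wts discs it was 2 without wts day 5 replicate 3 (of 343) or without control replicate 3 (of 590), 5 without wts replicate 1 (of 488), and 6 without control replicate 1 (of 459). In these fits with 1 library left out, fewer genes over the whole table were called lower too, against 1008 in cic wts and 735 in wts discs with all libraries. The median over the 31 genes stayed negative whichever library of the comparison was left out. It lay between -0.32 and -0.18 for cic wts and between -0.24 and -0.18 for wts discs.

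**Figure D3:**
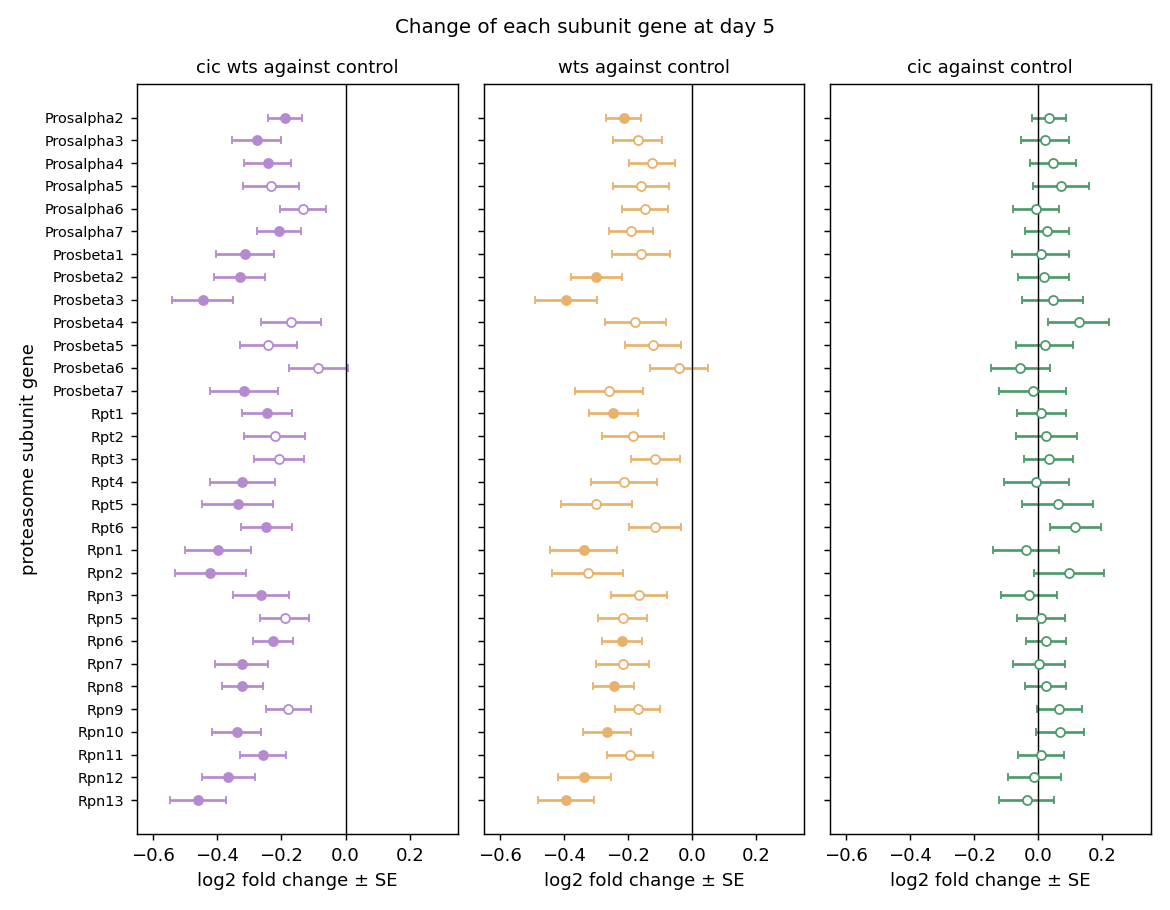
The log2 fold change ± SE of each of the 31 subunit genes against control at day 5 is drawn for cic wts (left), wts (middle) and cic discs (right), with filled points for genes called at an adjusted p under 0.05. All points of the left and middle panels lie left of 0, with Prosbeta6 nearest to it, and no point is filled for cic.

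The Rpn base, which holds the ubiquitin-binding subunits and the scaffold of the regulatory particle, had the most negative median of the 5 parts. All 4 of its genes were called lower in cic wts discs, with a median of -0.41, and 3 of 4 in wts discs, with a median of -0.33. Rpn13, a ubiquitin receptor, was at 117, 93.2 and 107 CPM in cic wts and 116, 113 and 104 in wts discs, against 151, 136 and 150.1 in controls. Every mutant library lay below every control library. With edgeR its log2 fold change was -0.46 ± 0.09 (SE; adjusted p = 0.00164) in cic wts and -0.39 ± 0.09 (adjusted p = 0.0064) in wts discs. Rpn13 stayed called in all 15 alternative fits of each comparison.

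Rpn2, a large scaffold subunit, was at 357, 272 and 353 CPM in cic wts and 359.6, 395 and 295 in wts discs, against 444, 409 and 462 in controls. Again no mutant library reached the controls. Its log2 fold change was -0.42 ± 0.11 (edgeR, adjusted p = 0.0124) in cic wts discs, where it was called, and -0.33 ± 0.11 (adjusted p = 0.0508) in wts discs, where it was not. Rpn1, the other large scaffold and a docking site for ubiquitin shuttles, was at 310.1, 246 and 307 CPM in cic wts and 307.5, 333 and 261 in wts discs, against 373, 352 and 413 in controls. These groups did not overlap, and edgeR gave log2 fold changes of -0.40 ± 0.10 (adjusted p = 0.0124) and -0.34 ± 0.10 (adjusted p = 0.035). The call of Rpn1 in wts discs held in 8 of 15 alternative fits. Rpn10, a ubiquitin receptor, was called in both groups, at -0.34 and -0.26.

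In the Rpn lid, 6 of 8 genes were called in cic wts (median -0.26) and 3 of 8 in wts discs (median -0.22). The 3 called in both were Rpn12 (-0.37 and -0.34), Rpn8 (-0.32 and -0.24) and Rpn6 (-0.23 and -0.22). Rpn8 is the partner of Rpn11, and its call in cic wts discs held in all 15 alternative fits. Rpn11, the deubiquitinase, was called lower in cic wts at -0.26, and was at -0.19 (adjusted p = 0.0738) in wts discs. Sem1, a lid subunit outside the naming rule, was at 64.7, 63.2 and 70.4 CPM in cic wts and 64.9, 75.5 and 68.3 in wts discs. Controls were at 60.7, 60.1 and 61.5 CPM, below all of these libraries, and Sem1 was called in neither comparison.

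In the Rpt ring, 4 of 6 genes were called in cic wts and 1 of 6, Rpt1, in wts discs, with medians of -0.25 and -0.20. The call of Rpt1 in wts discs held in 5 of 15 alternative fits. Rpt5 and Rpt4, other ATPases of the ring, were called in cic wts at -0.34 and -0.32, calls that held in 7 and 8 of 15 alternative fits. In the alpha ring, which forms the gate of the core, 4 of 6 measured genes were called in cic wts and 1 of 6, Prosalpha2, in wts discs, with medians of -0.22 and -0.16.

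In the beta ring, 4 of 7 genes were called in cic wts and 2 of 7 in wts discs, with medians of -0.31 and -0.18. Prosbeta3, a non-catalytic subunit, was at 127, 109.7 and 131 CPM in cic wts and 124, 137 and 121 in wts discs, against 165, 151 and 185 in controls. No mutant library overlapped the controls, and edgeR gave -0.45 ± 0.10 (SE; adjusted p = 0.00375) in cic wts and -0.39 ± 0.10 (adjusted p = 0.0109) in wts discs. Of the catalytic subunits, Prosbeta2 was called in both groups, at -0.33 and -0.30. Prosbeta1 was called in cic wts discs at -0.31, and was at -0.16 (adjusted p = 0.233) in wts discs. Prosbeta5 was called in neither, at -0.24 (adjusted p = 0.0621) and -0.12 (adjusted p = 0.354).

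Prosbeta6, another non-catalytic beta gene, was nearest to 0. It was at 180.1, 139.5 and 172 CPM in cic wts and 171, 175 and 161 in wts discs, against 164, 169 and 189 in controls, so the groups overlapped. Its log2 fold change was -0.09 ± 0.09 (edgeR, adjusted p = 0.538) in cic wts and -0.04 ± 0.09 (adjusted p = 0.788) in wts discs.

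Members lay on all 5 large chromosome arms, and the canonical median was negative on each, from -0.34 on 3L to -0.21 on 2L in cic wts and from -0.30 on 3L to -0.12 on X in wts discs. The mutant chromosome arm 3R, on which 9 of the genes lie, had medians of -0.32 and -0.22. Of the 31 genes, 15 overlap a neighbouring gene, and since the sources used here do not say whether counting used strand, reads of the neighbour could enter their counts. The median was -0.25 over these 15 and -0.26 over the other 16 in cic wts, and -0.21 and -0.19 in wts discs.

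In cic discs at day 5, 0 of 32 members were called against control, where 1.63% of all genes were called in either direction. At an unadjusted p under 0.05 the number was also 0, and DESeq2 called 0. The canonical median was 0.02, with single values from -0.06 for Prosbeta6 to 0.13 for Prosbeta4 and a median SE of 0.08. Rpn13 was at 136, 144 and 146 CPM in cic discs and 151, 136 and 150.1 in controls, and Prosbeta3 at 161, 178 and 178 in cic discs and 165, 151 and 185 in controls. These ranges overlapped.

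The addition of cic to wts was not detectable for any member at day 5. In cic wts against wts discs 0 members were called, where 2.91% of all genes were called, and 1 member, Rpt3R, had an unadjusted p under 0.05. DESeq2 also called 0. The canonical median was -0.06, and it was 0.03 without cic wts day 5 replicate 2, the library with the lowest summed level of its group. In the interaction of cic with wts, that is the effect of cic in wts discs minus its effect in discs without wts mutation, 0 members were called, where 1.94% of all genes were, and DESeq2 called 0 as well. Its canonical median was -0.07. At an unadjusted p under 0.05 there was 1 canonical gene, Rpt6, at -0.25 ± 0.11 on the log2 scale (edgeR, adjusted p = 0.327). The median SE was 0.12 for the interaction, against 0.08 for the comparisons with control, so the interaction was measured less precisely.

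**Figure D4:**
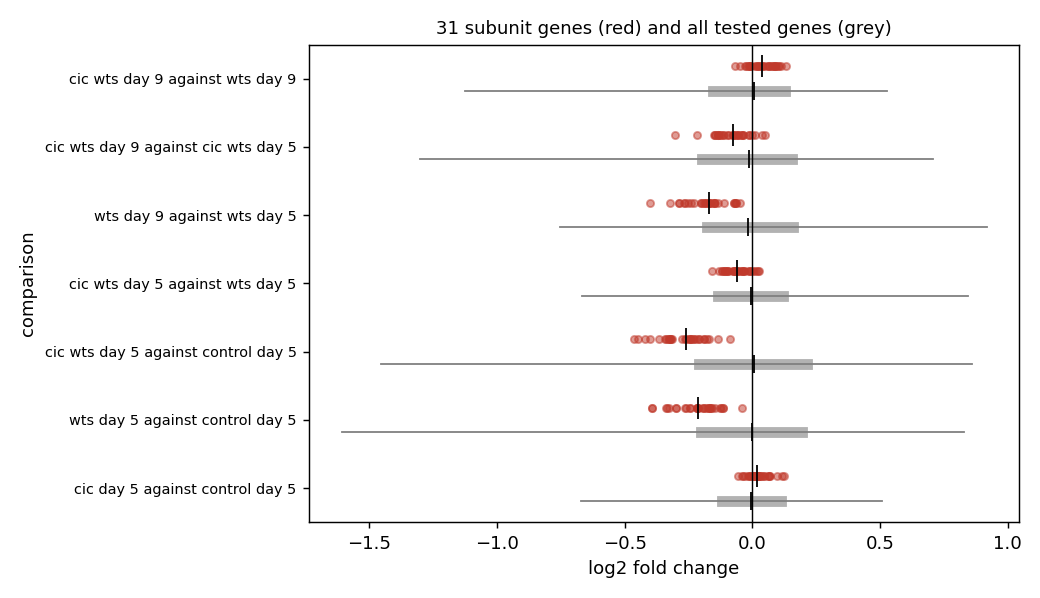
For each comparison, red points give the log2 fold change of the 31 canonical subunit genes and grey bars the range of all 9004 tested genes (thin, 5 to 95 percent of genes; thick, the middle 50 percent; ticks, medians). The subunit genes lie left of 0 against control in cic wts and wts discs and, less far, in wts day 9 against wts day 5 discs, and around 0 in cic discs.

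At day 9, 0 of 31 canonical genes were called in cic wts against wts discs by edgeR, 0 had an unadjusted p under 0.05, and their median was 0.04. The median was -0.02 without wts day 9 replicate 2. Of the 32 tested members, 1 was called lower, the paralog Rpt3R, where 4.01% of all genes were called lower, and DESeq2 also called 1 member. The difference in the cic effect between day 9 and day 5 gave 0 calls among members and 0% among all genes with edgeR, 0 and 593 at an unadjusted p under 0.05, and a canonical median of 0.10, which was 0.02 without cic wts day 5 replicate 2 and 0.15 without cic wts day 5 replicate 1. DESeq2 called 0 members for it.

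Between the ages, 3 members were called lower in wts day 9 than in wts day 5 discs, where 2.7% of all genes were called lower, and 0 were called higher. All 3 encode alpha subunits. All 31 canonical values were negative, with a median of -0.17 against -0.02 over all genes. The median was -0.11 without wts day 9 replicate 2 and -0.22 without wts day 9 replicate 1, the ends of its range when each library was left out. For 16 of 31 every day 9 library lay below every day 5 library, against 16.9% of all genes. Prosalpha5 was at 110.0, 96.8 and 106 CPM at day 9, against 129.9, 148 and 134 at day 5. The ages did not overlap, and edgeR gave -0.40 ± 0.09 (SE; adjusted p = 0.0167). Prosalpha4 was at 185, 163 and 174 CPM at day 9, against 211, 229 and 212 at day 5, with no overlap and a log2 fold change of -0.32 ± 0.07 (edgeR, adjusted p = 0.0185). Prosalpha6 was at 164, 149.8 and 163 CPM at day 9, against 184, 194.5 and 189 at day 5, also without overlap, and changed by -0.25 ± 0.07 (edgeR, adjusted p = 0.0491). The 3 calls were lost without wts day 9 replicate 2 or 3 and without wts day 5 replicate 2 or 3. The call of Prosalpha6 held in 4 of 15 alternative fits, and those of Prosalpha5 and Prosalpha4 in 11 of 15 each. Rpn13 and Prosbeta3, the genes with the largest falls in wts against control discs, were at -0.07 and -0.18 between the ages, neither called.

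In cic wts discs, 1 member was called lower at day 9 than at day 5, where 4.54% of all genes were. It was again Prosalpha5, at 98.4, 102 and 117 CPM at day 9, against 142, 118 and 132 at day 5. The highest day 9 library lay just below the lowest day 5 library, and edgeR gave -0.30 ± 0.09 (SE; adjusted p = 0.0396). The call was lost without cic wts day 9 replicate 1 or 2 and without cic wts day 5 replicate 1 or 3. The canonical median was -0.08, with 28 of 31 values negative. It was -0.16 without cic wts day 5 replicate 2 and -0.01 without cic wts day 5 replicate 1. For 4 of 31 genes every day 9 library lay below every day 5 library, against 14.7% of all genes. Without a day 9 control, age and the length of time that the mutant clones had grown cannot be told apart.

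Levels of markers of other tissues also differed between the ages. In wts discs the muscle markers summed to 137 to 185 CPM at day 9, against 195 to 319.7 at day 5. Of these, 1 of 9 was called lower, where 2.7% of all genes were. The hemocyte markers summed to 237 to 427 CPM at day 9, against 173 to 229 at day 5, with 0 of 10 called. The sums of neither list overlapped between the ages. In wts discs eater, a phagocytic receptor of hemocytes, was at 6.07 to 7.70 against 0.518 to 1.197 CPM (edgeR, adjusted p = 0.0891). Hml, NimC1, He, srp and Pxn did not overlap between the ages either, whereas PPO1, PPO2, Cg25C and vkg did. PPO1 was at 27.5, 3.95 and 6.40 CPM at day 9, against 6.87, 9.71 and 4.77 at day 5. In cic wts discs 2 of 9 muscle markers were called lower at day 9, where 4.54% of all genes were. They summed to 204 to 239.7 CPM, against 205 to 349 at day 5. Of the fat body markers 3 of 6 were called lower, with sums of 0.968 to 13.1 against 3.25 to 623. Their median sum at day 5 was 4.78, and 623 was in replicate 2 alone. Of the hemocyte markers 1 of 10 was called lower, with sums of 254 to 297 at day 9. At day 5 the hemocyte sums were 132, 203 and 2054, so only replicate 1 lay above the day 9 libraries. In wts discs the 6 fat body markers summed to 12.9 to 220 CPM at day 9, against 5.17 to 26.7 at day 5, with 0 called. The highest sum was in wts day 9 replicate 2, which had the lowest summed proteasome level of its group. The part of these tissues in the age results was not tested.

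Rpt3R, at 3R:9754735-9756510, was the 1 paralog above the filter and the 1 member called in cic wts against wts discs at day 9. It is a relative of the ATPase gene Rpt3 and its span overlaps the gene Alg12. Its level was 1.45, 1.97 and 1.77 CPM in cic wts day 9 discs, against 5.74, 2.65 and 4.28 in wts day 9 discs. The cic wts libraries were lower and closely spaced, the wts libraries varied widely, and they did not overlap. With edgeR the log2 fold change was -1.28 ± 0.25 (SE; adjusted p = 0.00452), and the call held in all 13 alternative fits. At day 5 it was at 2.84, 2.63 and 2.74 CPM in cic wts and 3.38, 5.17 and 4.40 in wts discs, which did not overlap, with a difference of -0.65 ± 0.24 (edgeR, adjusted p = 0.191). Levels were 3.11, 3.73 and 3.41 CPM in cic and 3.49, 3.11 and 3.44 in control discs, a log2 fold change of 0.03 (edgeR, adjusted p = 0.982). From day 5 to day 9 Rpt3R changed by -0.66 ± 0.25 in cic wts discs (edgeR, adjusted p = 0.0998). In wts discs it changed by -0.03 ± 0.24 (edgeR, adjusted p = 0.952). Rpt3 itself was at 172, 177 and 178 CPM in cic wts day 9, against 168, 155 and 171 in wts day 9 discs. In wts against control discs at day 5 Rpt3R was the 1 tested member with a positive log2 fold change (0.36; edgeR, adjusted p = 0.303).

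The list of 25 testis markers was examined beside Rpt3R. Its summed level was 68.3 to 73.6 CPM in cic wts day 9 and 69.1 to 91.7 in wts day 9 discs, 3 markers (Mst84Da, Mst84Dc and Mst35Ba) were at 0 in all 18 libraries, and 17 of 25 stayed under 1 CPM in every library. Of the 8 tested, 2 were called lower and 1 higher in cic wts against wts discs at day 9. The 2 called lower were topi and vis, both needed for spermatocyte transcription. The gene topi was at 0.194, 0.188 and 0.312 CPM in cic wts day 9, against 26.6, 3.38 and 6.11 in wts day 9 discs, and vis at 5.03, 4.13 and 4.63, against 10.3, 9.83 and 10.2. The gene called higher was achi, at 27.2, 28.1 and 24.4 CPM in cic wts day 9, against 18.1, 20.7 and 21.9 in wts day 9 discs. As achi and vis are close copies of each other, how their reads were split is uncertain. The other 5 were not called, among them twe, at 9.48 ± 1.38 CPM in cic wts and 7.91 ± 1.00 in wts day 9 discs, and bol, at 4.29 ± 0.83 and 4.30 ± 1.29 (SD, n = 3 each). The wts day 9 library with the highest topi level was also that with the highest Rpt3R level, as was the wts day 5 library with the highest topi level, at 10.6 CPM. Other testis markers did not all follow. In that wts day 9 library bol was the lowest of its group, at 2.87 CPM against 4.63 and 5.39, and twe was intermediate. In that wts day 5 library twe was the lowest of its group and bol the highest. Rpt3R did not follow topi in all libraries. In wts day 9 replicate 2 topi was at 3.38 CPM and Rpt3R at 2.65. In cic and control libraries topi was at 0.235 to 0.583 CPM and Rpt3R at 3.11 to 3.73. At day 5 vis was at 9.89, 9.64 and 10.2 CPM in wts discs. It was at 3.45, 4.41 and 4.62 in cic wts discs and 3.87, 3.78 and 2.75 in controls. The part of testis RNA in the Rpt3R result was not tested.

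**Figure D5:**
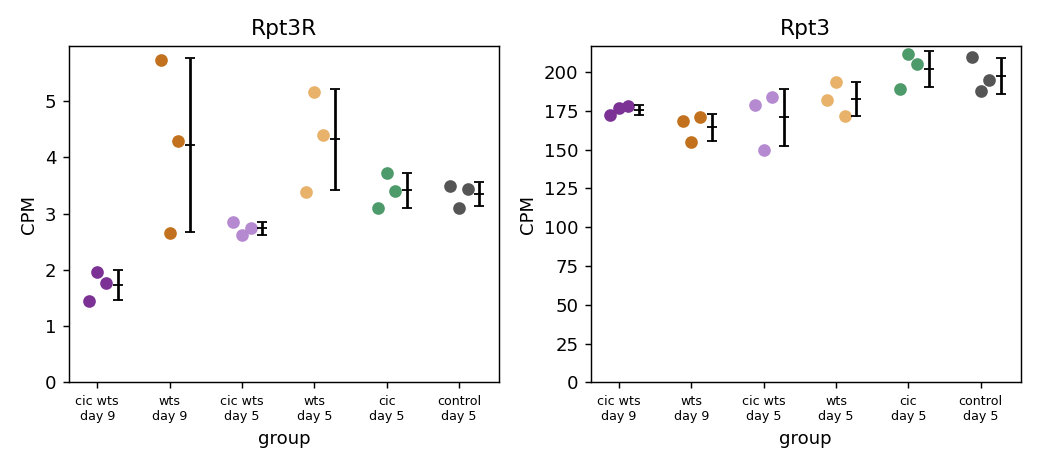
CPM of the paralog Rpt3R (left) and of Rpt3 (right) in each library (points), with the mean and SD of each group (bars), on axes from 0. Rpt3R lies at 1.45 to 1.97 in cic wts day 9 discs, below all other libraries, whereas Rpt3 at 172 to 178 there is within the range of the other groups.

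Genes that act with the proteasome were taken from 4 lists. Over all tested genes 11.3% were called higher and 11.2% lower in cic wts, and 10% and 8.16% in wts discs. Of 15 tested genes for assembly and regulation, 1 was called higher and 1 lower in cic wts against control, and 1 higher and 2 lower in wts discs, with list medians of -0.02 and -0.07. Pomp, the maturation factor of the core, fell in both, at 81.7, 74.95 and 80.6 CPM in cic wts and 79.2, 83.2 and 79.4 in wts discs, against 89.3, 93.3 and 106 in controls. All 6 mutant libraries lay below the controls, and edgeR gave -0.28 ± 0.08 (adjusted p = 0.0143) and -0.26 ± 0.08 (adjusted p = 0.0294). Uch-L5, a deubiquitinase bound to Rpn13, fell in wts discs at -0.22. REG, the activator that caps the core and works without ubiquitin, rose in cic wts discs at 0.27, at 377, 377 and 373 CPM against 307, 332 and 298 in controls.

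The transcripts of cnc, maf-S and Keap1 were examined. The activity of CncC was not measured, and its part in the subunit levels was not tested. cnc itself was at 189.6, 197 and 194 CPM in cic wts and 209, 193 and 204.5 in wts discs, against 177, 189 and 174 in controls, with log2 fold changes of 0.10 (edgeR, adjusted p = 0.256) and 0.17 (adjusted p = 0.0754). Its partner maf-S rose in wts discs, at 39.7, 39.5 and 44.0 CPM against 33.6, 31.9 and 28.5 in controls (0.39 ± 0.10; edgeR, adjusted p = 0.0132), and was at 0.17 (adjusted p = 0.217) in cic wts discs. Keap1, the inhibitor of CncC, was at -0.28 in cic wts and -0.38 in wts discs, neither called.

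Of the 13 ubiquitin and shuttle genes, 5 were called lower and 1 higher in cic wts, and 3 lower and 1 higher in wts discs, with list medians of -0.19 and -0.09. The gene that rose in both was RpS27A, which encodes ubiquitin fused to a ribosomal protein, at 0.33 and 0.26. The ubiquitin-conjugating enzyme gene eff (-0.34 and -0.25) and Npl4 (-0.28 and -0.23), a cofactor of the segregase TER94, fell in both. TER94 fell in cic wts discs (-0.29) and was at -0.16 (edgeR, adjusted p = 0.216) in wts discs. Of the 8 tested genes of the COP9 signalosome, a relative of the lid, 3 were called lower in cic wts and 2 in wts discs, with list medians of -0.10 and -0.05: CSN1b (-0.33 and -0.25), CSN7 (-0.23 and -0.23) and, in cic wts, CSN6 (-0.29).

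Between the ages, 546 of all 9004 tested genes were called higher and 409 lower in cic wts discs, and 377 and 243 in wts discs. Of the 15 genes for assembly and regulation, 2 were called higher and 1 lower in cic wts discs, with a list median of -0.05. In wts discs 2 were called lower, with a list median of -0.10. REG fell at day 9 in both genotypes, at -0.33 in cic wts and -0.31 in wts discs, and Uch-L5 fell in wts discs at -0.25. cnc rose to 229, 229 and 215 CPM at day 9 in cic wts discs, against 189.6, 197 and 194 at day 5 (0.22 ± 0.06; edgeR, adjusted p = 0.0416), and rngo, a relative of the ubiquitin shuttle Ddi1, also rose, at 0.23. Of the 13 ubiquitin and shuttle genes 1 was called in each genotype: the polyubiquitin gene Ubi-p5E rose at day 9 in both genotypes, at 0.25 and 0.28.

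Of 17 chaperones of the cytosol, 2 were called lower in wts against control discs, Cctgamma (-0.32) and T-cp1 (-0.31), subunits of the ring-shaped TRiC chaperone. In cic wts discs both were at -0.27 and not called. The stress-induced chaperone Hsp68 ran from 131 to 575 CPM in cic wts and 56.1 to 112 in wts discs, against 6.2 to 2501 in controls, and was not called. With the level of Hsp68 as a covariate, chosen after seeing the data, 22 members were called in cic wts and 9 in wts discs. Over all genes 1016 and 635 were then called lower.

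Markers of other tissues were also called between the groups. Over all tested genes 11.3% were called higher and 11.2% lower in cic wts, and 10% and 8.16% in wts discs. In cic discs 1.63% were called in either direction. All 7 salivary gland markers were called lower in cic wts and in wts discs, where their summed levels were 1.22 to 5.53 and 0.469 to 0.674 CPM, against 3.63 to 6137 in controls, with the highest value in control replicate 3. In cic discs they summed to 3.61 to 18.7 CPM and all 7 were called lower as well. Of the 9 muscle markers, 6 were called lower in cic wts and 1 in wts discs, with sums of 205 to 349 and 195 to 319.7, against 330.4 to 1073 CPM in controls. Of 10 hemocyte markers 1, Hml, was called higher in cic wts discs, with sums of 132 to 2054, the highest in replicate 1, and 173 to 229 in wts discs, against 253 to 364 in controls. The 6 fat body markers summed to 3.25 to 623 CPM in cic wts and 5.17 to 26.7 in wts discs, against 12.5 to 177 in controls, with 1 called lower in wts discs. The highest sum in cic wts discs was in replicate 2, which had the lowest summed proteasome level of its group. In controls the highest sum was in replicate 3, which had the highest summed proteasome level of its group. Of the 9 wing disc markers, 4 were called lower in cic wts and 1 in wts discs. With control replicate 3 and cic wts day 5 replicate 1 left out together, 14 members were called in cic wts and 4 in wts discs. Over all genes 913 and 683 were then called lower, and the canonical medians were -0.28 and -0.18. The part of these tissues in the proteasome results was otherwise not tested.

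The male-specific RNA roX1 was at 420.1, 1036 and 759.5 CPM in cic wts and 553, 678 and 684 in wts discs, against 224, 407 and 579.9 in controls, and was not called. With its level as a covariate, chosen after seeing the data, 10 members were called in cic wts and 6 in wts discs, with canonical medians of -0.22 and -0.18. Over all genes 891 and 655 were then called lower.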

How the data were processed

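The authors deposited 1 table of raw counts per gene for 18 RNA libraries. The submitters' processing notes name Bowtie2, TopHat2, HTSeq, DESeq2 and the dm6 build, while the sources used here give no versions, roles or strand setting. Per the labels' protocols, discs were dissected by hand and a TruSeq mRNA kit was used.

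Labels gave each library's group and replicate number. One edgeR 4.0.16 model in R 4.3.3 took the deposited counts of all 18 libraries (TMM, filterByExpr, a coefficient per group, quasi-likelihood F test), with p-values adjusted over 9004 genes. SEs were derived from the F statistic, and CPM were computed here. Of the replicate pairs, 0 were identical, and counts differed beyond sampling noise (chi-square per degree of freedom 10.2 to 60.9). Coordinates and overlaps came from the RefSeq release 6 gene table, in which all 47 symbols matched. Coding lengths, promoters and proteins were not used here.

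The members, lists and comparisons were chosen with earlier results of these data known. By rule, values per library are given for up to 3 called members per comparison with the largest log2 fold change and for paralogs reaching 1 CPM, and up to 4 called genes of each other list are named per comparison. Prosbeta6, Sem1, Rpt3, cnc, Keap1, Hsp68, roX1, twe, bol and eater, and which list genes get a value per library, were chosen after their values were seen. Alternatives were other scalings (RLE, total counts), testing every gene, DESeq2 1.42.0, a replicate block, a model of the compared libraries alone, left-out libraries, and 2 covariates added after seeing the data. The procedure was tested on simulated counts.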

Additional observations from a re-analysis of the deposited data

How the results depend on the processing

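The direction of the canonical median was the same under every alternative without a left-out library. For cic wts against control at day 5, 22 members were called, beside 1008 lower genes in all. The number was 14 (of 913 lower genes) with control replicate 3 and cic wts day 5 replicate 1 left out, and 13 (of 835) with no filter on low counts. It was 4 (of 518) when the model held the compared libraries alone and 10 (of 891) with roX1 as a covariate. When each library was left out it was 6 (of 672) to 24 (of 1010). For wts against control, 10 were called, beside 735 lower genes in all. It was 17 (of 991 lower genes) with DESeq2 and 19 (of 1081) with total-count scaling. It was 4 (of 683) with the same 2 libraries left out and 6 (of 655) with roX1 as a covariate. When each library was left out it was 2 (of 343 or 590) to 11 (of 525). For wts day 9 against wts day 5, 3 were called (of 243 lower genes), 7 (of 406) with DESeq2 and 6 (of 399) with roX1 as a covariate. When each library was left out it was 0 to 3, with 40 to 186 lower genes in all. For cic wts day 9 against cic wts day 5, 1 was called (of 409 lower genes). It was 0 with the 2 libraries left out (152 lower genes in all), with no filter (316) and with the compared libraries alone (326). When each library was left out it was 0 to 1, with 71 to 379 lower genes in all. The causes were not tested beyond the fewer libraries in some fits. Total-count scaling turned the calls over all genes from 1014 higher and 1008 lower to 749 and 1293 in cic wts, and from 900 and 735 to 635 and 1081 in wts discs; the canonical median minus that of all genes was -0.26 and -0.21 under both scalings.

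When each library was left out, the canonical median ran from -0.11 to 0.03 for cic wts against wts at day 5, from -0.02 to 0.09 at day 9, from -0.01 to 0.06 for cic against control, from -0.12 to 0.01 for the cic by wts interaction and from 0.02 to 0.15 for the cic by day interaction. Of 551 alternative values for the 37 called member results, 384 kept the call, 167 lost it and 0 reversed.

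Same-numbered libraries of different groups had correlated deviations of -0.14 to 0.44, with 15 of 45 pairs over 0.1, short of the rule that every pair exceed 0.1, so the samples are not treated as paired. As a hint of pairing from the data, 12 of 18 libraries correlated best with their own number. With the replicate number as a block, 23 members were called in cic wts (of 1062 lower genes) and 9 in wts against control (of 744). The number was 2 in wts day 9 against wts day 5 (of 249) and 1 in cic wts day 9 against cic wts day 5 (of 408). It was 1 in cic wts against wts at day 9 (of 354) and 0 in the others. Counts limit Rpt3R, at 30 to 108 counts per library.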
